A study of Homo sapiens with 36 samples.

Results

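ATF4 stress, proline and one-carbon metabolism genes were followed in THP-1 cells, a human monocytic leukaemia line, as 35 genes of 57500 in the count files. They comprise a group of 7 that holds proline enzymes and the aldehyde dehydrogenase gene ALDH1B1, 8 stress regulators and 4 enzymes of serine and asparagine synthesis. The others are 6 one-carbon enzymes, a group of 6 that holds 5 amino acid transporter genes and the lipoprotein receptor gene VLDLR, and 4 tRNA synthetases. The list was drawn up because PYCR1 is raised by 10% CO2, to see whether its pathway neighbours and ATF4 targets move with it. PYCR1 and ALDH1B1 were chosen by their CO2 response in these same libraries, so their CO2 values are given as a description, and counts for CO2 cover the other 33 genes.

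THP-1 cells carried 1 of 3 lentiviral short hairpin RNAs, a non-target control (shNT), one against NR4A2 (shNR4A2) or one against NR4A3 (shNR4A3). Each line was kept for 4 h in pH-buffered medium at 5% or 10% CO2, with or without 2.5 µg/mL lipopolysaccharide (LPS) for the last 2 h. This gave 12 conditions with 3 replicates each, 36 libraries in all, which came from separate experiments by the study's methods. Each line is a single transduced population, so the hairpin and the line cannot be told apart, and the 2 CO2 levels were held in separate chambers, so chamber and CO2 cannot be told apart either.

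ATF4 is a transcription factor of the integrated stress response. When stress kinases phosphorylate eIF2alpha, most translation slows while ATF4 messenger RNA is translated more, so ATF4 activity can change without a change in its transcript. ATF4 is known to switch on genes for amino acid synthesis and uptake, for the aminoacyl-tRNA synthetases and for mitochondrial folate metabolism. Proline is made from glutamate by ALDH18A1 and the PYCR reductases, and serine made from a glycolytic intermediate by PHGDH, PSAT1 and PSPH feeds one-carbon units to the SHMT and MTHFD enzymes. RNA was measured in bulk, where fewer cells of a type and less RNA per cell cannot be told apart, and no protein was measured.

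Total counts ran from 16171161 to 23929138 per library, with a median of 19639071. Levels are given as TPM, the abundance of a gene's transcripts scaled for gene length and library depth, and differences as log2 fold changes (log2FC) ± SE from edgeR's quasi-likelihood test with Benjamini-Hochberg adjustment over 17720 genes. A call needed an adjusted p under 0.05, and for LPS and line differences also at least a 1.5-fold change. Unless a replicate block (a term for replicate number) is named, tests and calls are from fits without it. All 35 genes were found, and 34 passed the filter on low counts. PRODH, which breaks down proline, did not pass, with 0 to 11 counts per library, and is the only one left untested. The SD between 3 replicates was 0.705% to 29.6% of the mean TPM, with a median of 9.60% over 408 pairs of gene and condition. LPS raised CXCL8 by 8.09 ± 0.16 on the log2 scale, and with LPS the targeted genes were lower in their lines. With LPS, NR4A2 lay at 13.4 to 28.3 TPM in shNR4A2 cells against 43.97 to 74.7 TPM in shNT cells. Without LPS, NR4A2 was low, at 5% CO2 1.63 to 2.41 TPM against 2.83 to 4.16 TPM in shNT cells. At 10% CO2 without LPS it was at 1.07 to 1.39 TPM against 1.49 to 3.15 TPM, so these lines did not overlap within a CO2 level. NR4A3 lay at 12.5 to 19.98 TPM in shNR4A3 cells with LPS against 30.6 to 38.6 TPM in shNT cells. Without LPS its levels were low, at 5% CO2 0.0315 to 0.158 TPM against 0.512 to 0.693 TPM in shNT cells. At 10% CO2 without LPS its 0.185 to 0.232 TPM overlapped the 0.176 to 0.374 TPM of shNT cells. The monocyte markers LYZ and SPI1 were at 131 TPM or more and 467 TPM or more in every library, while the B cell marker MS4A1 was at 0 in 28 libraries and the red cell gene HBB at 0 in 30 libraries.

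ATF4 binds DNA with C/EBP partners at amino acid response elements, whose core letters are TGATGNAA. These letters were searched for on both strands in the 250 bases before each RefSeq start (GRCh38.p14), a window available for 28 of the 35 genes. They were found in 7 of the 28, and in 3.89% of the 27305 genes in the table. The 30 bases around each match are shown because these are the stretches of the gene set that hold the known ATF4 letters. They are written 5′ to 3′ on the gene's own strand, with the match in capitals, where a match on the opposite strand reads as its reverse complement.
CEBPG, chr19:33374060-33374089, plus strand: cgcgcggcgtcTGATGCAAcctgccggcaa
CHAC1, chr15:40953251-40953280, plus strand: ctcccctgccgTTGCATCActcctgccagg
ASNS, chr7:97872458-97872487, minus strand: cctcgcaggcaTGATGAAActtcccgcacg
MTHFD1L, chr6:150866346-150866375, plus strand: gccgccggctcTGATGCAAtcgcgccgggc
SLC1A5, chr19:46784893-46784922, minus strand: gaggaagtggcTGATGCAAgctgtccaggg
AARS1, chr16:70289675-70289704, minus strand: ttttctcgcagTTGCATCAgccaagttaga
GARS1, chr7:30594834-30594863, plus strand: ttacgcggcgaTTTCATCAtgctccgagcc
The CEBPG stretch overlapped no annotated exon in GENCODE release 44, and each of the others overlapped an annotated exon of its own gene. A match in letters is not a measured binding site. Among these 7 genes, ASNS and SLC1A5 were called higher at 10% CO2 in both states. With LPS, CHAC1 was called higher and CEBPG lower, and MTHFD1L, AARS1 and GARS1 passed the CO2 test in neither state. Of all genes, 9.18% were called higher and 8.72% lower without LPS, and 15.3% and 15.5% with LPS. Over the 6 pairs of line and state, the log2FC was above 0 in all 6 for ASNS, CHAC1, SLC1A5 and GARS1. It was above 0 in 5 for MTHFD1L and AARS1, and below 0 in all 6 for CEBPG. Whether the letters bear on these differences was not tested.

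The first comparison set 10% against 5% CO2 in the 3 lines together, with line as a term, for 9 libraries against 9. Without LPS, genes for making proline, serine and asparagine and 2 of the 5 amino acid transporter genes were higher at 10% CO2, while the stress regulators did not pass the test. Of the 32 tested genes not chosen by CO2 response, 11 were called higher, against 9.18% of all genes tested. None of the 32 was called lower, against 8.72% of all genes. At an unadjusted p under 0.05, 1 of them was lower, and DESeq2 called 1 lower. The median log2FC of the 32 genes was 0.10, and that of all genes was 0.00 (-0.00184).
With LPS, 11 of the 32 genes were called higher, against 15.3% of all genes, and 3 were called lower, against 15.5% of all genes. Their median log2FC with LPS was 0.08, against 0.00 (0.00225) for all genes. The called sets of the 2 states shared 8 genes, 72.7% of the set without LPS and 57.1% of the set with LPS. These 8 were ALDH18A1, PHGDH, PSAT1, PSPH, ASNS, SLC3A2, SLC1A5 and SARS1, and each was higher at 10% CO2 in both states.

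**Figure D1:**
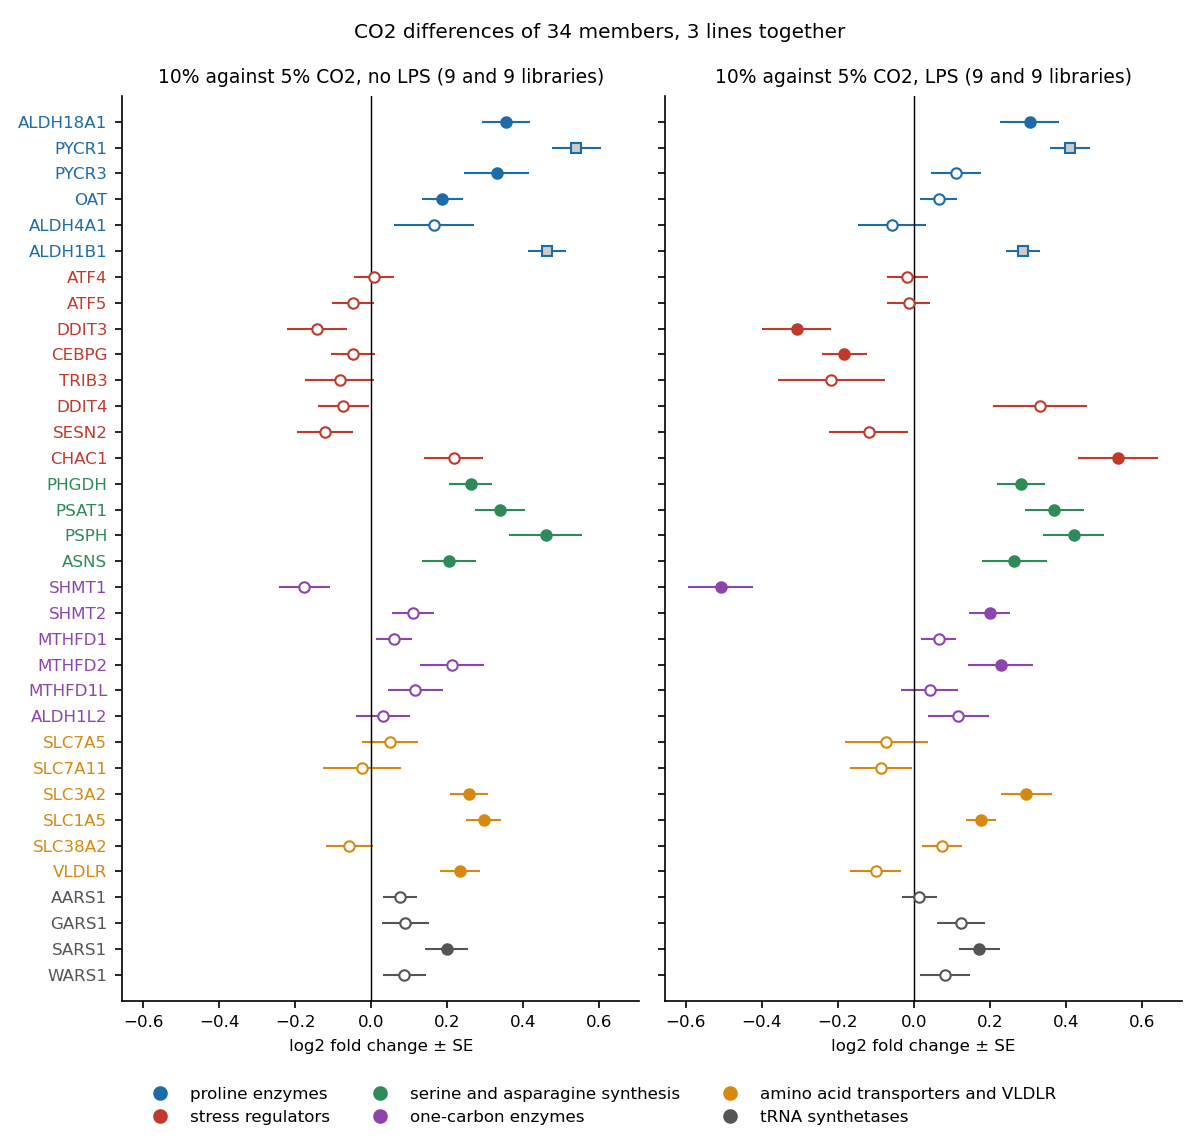
The log2 fold change of 10% against 5% CO2 (x axis, ± SE) is plotted for 34 genes coloured by role, without LPS on the left and with LPS on the right, 9 libraries against 9 in each. Filled circles passed an adjusted p of 0.05, open circles did not, and grey squares are PYCR1 and ALDH1B1, which were chosen by this response. All 4 genes of serine and asparagine synthesis are filled and to the right of 0 in both panels, whereas ATF4 sits at 0.01 and -0.02.

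PYCR1 (chr17:81932384-81942412, minus strand, ENSG00000183010) makes proline from pyrroline-5-carboxylate in mitochondria. Without LPS, shNT cells held 69.6, 80.9 and 78.5 TPM of PYCR1 at 5% CO2 and 104, 117 and 135 TPM at 10% CO2. In shNR4A2 cells the PYCR1 levels were 68.5, 74.1 and 72.3 TPM at 5% and 90.5, 113 and 89.2 TPM at 10% CO2. In shNR4A3 cells they were 72.1, 88.9 and 70.6 TPM at 5% and 93.4, 107 and 99.0 TPM at 10% CO2. All 9 libraries at 10% CO2 lay above all 9 at 5%, and the log2FC of PYCR1 was 0.54 ± 0.06, a 1.45-fold difference.
With LPS, PYCR1 was at 57.5, 60.7 and 69.5 TPM at 5% CO2 and 82.8, 78.8 and 87.5 TPM at 10% in shNT cells. The shNR4A2 cells with LPS held 50.9, 52.8 and 55.1 TPM at 5% and 62.0, 60.2 and 64.6 TPM at 10% CO2. The shNR4A3 cells with LPS held 53.3, 54.7 and 57.3 TPM at 5% and 62.7, 73.0 and 75.1 TPM at 10% CO2. The 2 CO2 levels did not overlap within any of the lines, and the log2FC with LPS was 0.41 ± 0.05. As PYCR1 was selected on this difference, no test is attached to it.

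ALDH1B1 (chr9:38392664-38398661, plus strand, ENSG00000137124) is a mitochondrial aldehyde dehydrogenase, the other gene chosen by its CO2 response. Without LPS its levels in shNT cells were 98.5, 96.3 and 112 TPM at 5% CO2 and 124, 127 and 123 TPM at 10%. In shNR4A2 cells they were 90.2, 75.5 and 94.0 TPM at 5% and 114, 127 and 108 TPM at 10%. In shNR4A3 cells they were 80.9, 73.2 and 80.5 TPM at 5% and 107, 115 and 110 TPM at 10%. The CO2 levels did not overlap within any line, and the log2FC of ALDH1B1 was 0.46 ± 0.05. With LPS its levels were higher at both CO2 levels. They were 153, 160 and 171 TPM at 5% and 176, 175 and 189 TPM at 10% in shNT cells. They were 128, 128 and 148 TPM at 5% and 148, 166 and 166 TPM at 10% in shNR4A2 cells. They were 114, 115 and 123 TPM at 5% and 134, 143 and 134 TPM at 10% in shNR4A3 cells. With LPS they did not overlap in shNT and shNR4A3 cells and overlapped in shNR4A2 cells. The log2FC of ALDH1B1 with LPS was 0.29 ± 0.04, and no CO2 test is attached to it.

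The proline pathway beyond PYCR1 moved in part. Of the 5 proline enzymes besides PYCR1, 4 were tested. Without LPS 3 of them were called higher and 1 did not pass, beside 9.18% of all genes called higher. With LPS 1 was called higher and 3 did not pass, beside 15.3% of all genes. ALDH18A1 (chr10:95605929-95656706, minus strand) carries out the first steps from glutamate towards proline. Without LPS its levels in shNT cells were 57.6, 63.3 and 77.9 TPM at 5% CO2 and 77.5, 81.1 and 83.1 TPM at 10%. In shNR4A2 cells they were 49.7, 55.3 and 61.9 TPM at 5% and 53.4, 70.8 and 66.3 TPM at 10%. In shNR4A3 cells they were 46.4, 55.3 and 61.8 TPM at 5% and 62.4, 77.9 and 79.2 TPM at 10%. The CO2 levels overlapped in shNT and shNR4A2 cells and not in shNR4A3 cells. ALDH18A1 rose 1.28-fold, a log2FC of 0.36 ± 0.06 with adjusted p = 0.000465. With LPS its TPM ran from 37.9 over a median of 52.2 to 62.4 at 5% CO2 and from 45.7 over 59.6 to 73.5 at 10%, and the log2FC was 0.31 ± 0.08 with adjusted p = 0.00508.

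PYCR3, the cytosolic reductase of the same final step, held 35.4, 41.1 and 39.5 TPM in shNT cells at 5% CO2 without LPS and 40.6, 52.6 and 58.5 TPM at 10%. In shNR4A2 cells PYCR3 was at 34.1, 40.6 and 35.8 TPM at 5% and 37.0, 59.7 and 41.1 TPM at 10%. In shNR4A3 cells it was at 37.2, 49.0 and 38.3 TPM at 5% and 38.4, 49.5 and 47.5 TPM at 10%. The CO2 levels overlapped in every line, and the increase over all 18 libraries was 1.26-fold, a log2FC of 0.33 ± 0.09 with adjusted p = 0.00882. With LPS the log2FC of PYCR3 was 0.11 ± 0.07 with adjusted p = 0.215.
OAT, the aminotransferase that links ornithine with proline, rose without LPS, with a log2FC of 0.19 ± 0.05 and adjusted p = 0.0156, from a median of 43.0 TPM at 5% CO2 to 48.3 TPM at 10%. Its log2FC with LPS was 0.07 ± 0.05 with adjusted p = 0.33. ALDH4A1, which degrades the proline intermediate to glutamate, did not pass in either state, with log2FC of 0.17 ± 0.11 and -0.06 ± 0.09 and adjusted p of 0.306 and 0.676. Its levels were low, 3.45 to 10.3 TPM over the 36 libraries.

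**Figure D2:**
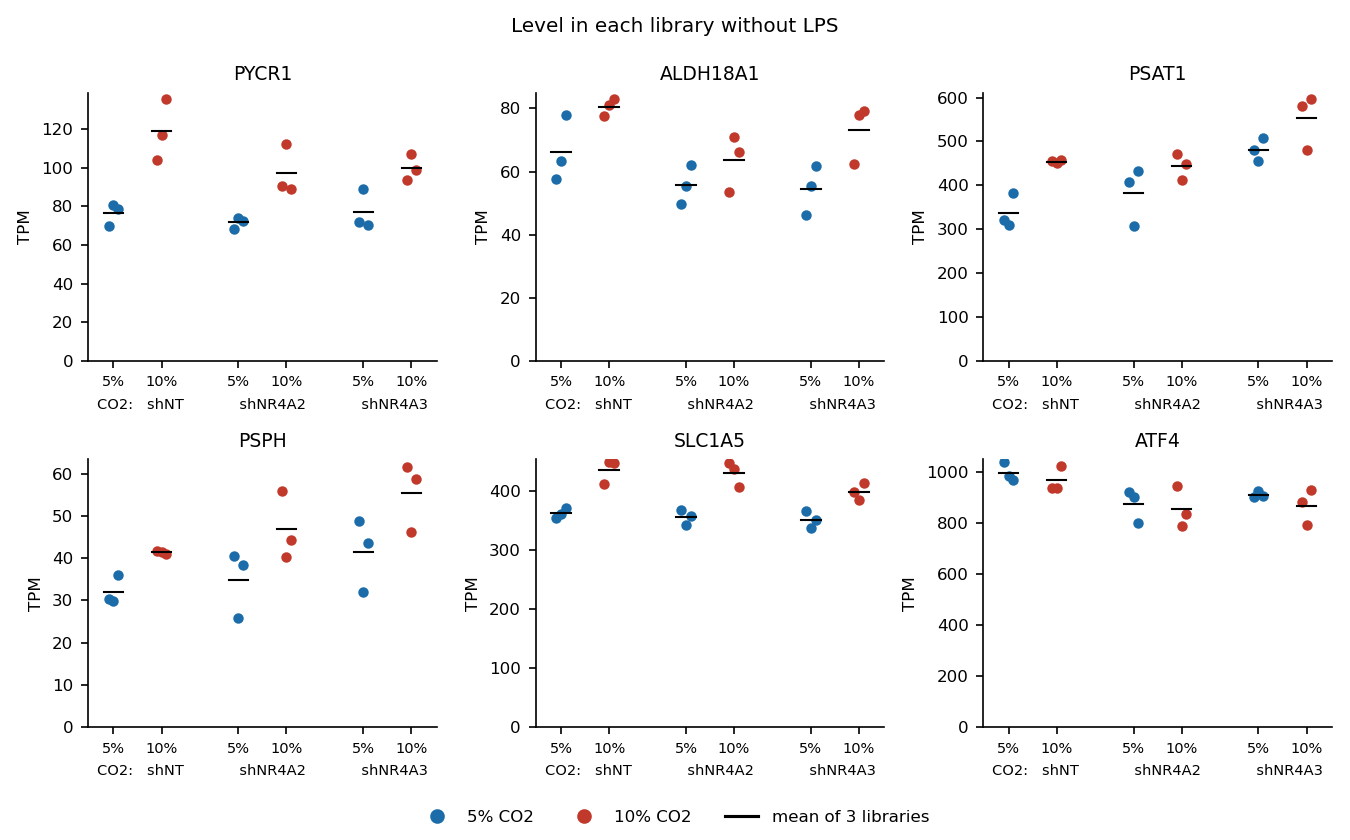
TPM (y axis, from 0) in each of the 18 libraries without LPS is plotted for 6 genes by line and CO2 level, with a bar at the mean of 3 libraries. For PYCR1 every library at 10% CO2 lies above every library at 5%, for SLC1A5 likewise (384 to 448 TPM against 337 to 371 TPM), and for ATF4 the CO2 levels overlap between 786 and 1036 TPM.

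The 4 genes of serine and asparagine synthesis were called higher at 10% CO2 in both states, with a median log2FC of 0.30 without LPS and 0.33 with it. Of all genes, 9.18% were called higher without LPS and 15.3% with it. PSAT1, the aminotransferase of the serine pathway, was at 321, 309 and 383 TPM in shNT cells at 5% CO2 without LPS and at 454, 451 and 457 TPM at 10%. In shNR4A2 cells PSAT1 was at 409, 306 and 433 TPM at 5% and 472, 413 and 449 TPM at 10%. In shNR4A3 cells it was at 480, 455 and 509 TPM at 5% and 582, 481 and 596 TPM at 10%. The levels did not overlap in shNT cells and overlapped in the other lines. PSAT1 rose 1.27-fold without LPS, a log2FC of 0.34 ± 0.07 with adjusted p = 0.000889, and with LPS by a log2FC of 0.37 ± 0.08 with adjusted p = 0.00131. With LPS its TPM ran from 270 over a median of 344 to 444 at 5% CO2, and from 375 over 425 to 522 at 10%.

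PSPH, the phosphatase that releases serine, had its smallest adjusted p with LPS. There it was at 19.7, 20.7 and 20.1 TPM at 5% CO2 and 27.3, 26.0 and 31.2 TPM at 10% in shNT cells. With LPS shNR4A2 cells held 21.2, 19.7 and 22.5 TPM at 5% and 29.2, 27.2 and 25.9 TPM at 10%. The shNR4A3 cells with LPS were at 28.5, 22.9 and 31.0 TPM at 5% and 34.9, 27.1 and 31.5 TPM at 10%. PSPH did not overlap between CO2 levels in shNT and shNR4A2 cells and overlapped in shNR4A3 cells. Its log2FC was 0.42 ± 0.08 with LPS and adjusted p = 0.000403, a 1.34-fold rise, and 0.46 ± 0.10 without LPS and adjusted p = 0.00186.
PHGDH, the first enzyme of the pathway, was at 105, 111 and 132 TPM at 5% CO2 with LPS in shNT cells and at 122, 124 and 147 TPM at 10%. With LPS shNR4A2 cells held 132, 123 and 156 TPM at 5% and 156, 148 and 176 TPM at 10%. With LPS shNR4A3 cells held 157, 159 and 187 TPM at 5% and 192, 186 and 204 TPM at 10%. Its CO2 levels overlapped in each line, while the fit over the lines gave a log2FC of 0.28 ± 0.06 with adjusted p = 0.00192 with LPS and 0.26 ± 0.06 with adjusted p = 0.00212 without it.
ASNS, which makes asparagine and holds the letters shown above 68 to 61 bases before its start, rose less. Its log2FC was 0.21 ± 0.07 with adjusted p = 0.0455 without LPS and 0.26 ± 0.09 with adjusted p = 0.0244 with LPS. The median level of ASNS went from 64.4 to 71.5 TPM without LPS and from 73.6 to 82.9 TPM with LPS. The call of ASNS without LPS was lost when 12 of the 18 libraries were left out one at a time, with adjusted p from 0.0135 to 0.0992.

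The stress regulators showed no shared direction. ATF4 (chr22:39519695-39522685, plus strand, ENSG00000128272) was among the most abundant transcripts, with a mean of 972 TPM over the 36 libraries, above 99.8% of genes with a mean above 0. Without LPS it was at 1036, 981 and 966 TPM at 5% CO2 and 936, 937 and 1022 TPM at 10% in shNT cells. In shNR4A2 cells ATF4 was at 919, 901 and 799 TPM at 5% and 945, 786 and 833 TPM at 10%. In shNR4A3 cells it was at 900, 925 and 905 TPM at 5% and 881, 791 and 927 TPM at 10%. ATF4 overlapped between CO2 levels in every line, with a log2FC of 0.01 ± 0.05 and adjusted p = 0.949. With LPS it was at 1194, 1156 and 1109 TPM at 5% and 1124, 966 and 1124 TPM at 10% in shNT cells. With LPS shNR4A2 cells held 1114, 968 and 901 TPM at 5% and 1007, 918 and 912 TPM at 10%. With LPS shNR4A3 cells held 1124, 992 and 1053 TPM at 5% and 997, 939 and 1003 TPM at 10%. The log2FC of ATF4 between CO2 levels with LPS was -0.02 ± 0.05 with adjusted p = 0.854.

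Of the 8 regulators, none was called by edgeR without LPS, beside 9.18% of all genes called higher and 8.72% lower. CHAC1 was the 1 with an unadjusted p under 0.05 there, and the 1 that DESeq2 called. With the replicate number as a block CHAC1 was called higher without LPS (adjusted p = 0.0204), in a fit that called 4390 of 17720 genes. With LPS 1 was called higher and 2 lower, beside all-gene shares of 15.3% and 15.5%. CHAC1, which degrades glutathione and is a known ATF4 target, was at 65.2, 73.5 and 94.5 TPM with LPS at 5% CO2 and 93.4, 95.4 and 103 TPM at 10% in shNT cells. CHAC1 in shNR4A2 cells with LPS was at 47.9, 38.4 and 54.6 TPM at 5% and 71.1, 61.5 and 73.6 TPM at 10%. With LPS shNR4A3 cells held 67.2, 47.6 and 78.4 TPM at 5% and 99.2, 85.6 and 93.0 TPM at 10%. The groups did not overlap in shNR4A2 and shNR4A3 cells and overlapped by 1 library in shNT cells. CHAC1 rose 1.45-fold with LPS, a log2FC of 0.54 ± 0.11 with adjusted p = 0.000976. Without LPS its log2FC was 0.22 ± 0.08 with adjusted p = 0.0528, and it was called in 4 of the 18 fits that left out 1 library.
DDIT3, which encodes the stress factor CHOP, fell with LPS. It was at 69.4, 69.0 and 63.9 TPM at 5% CO2 and 58.8, 40.5 and 56.9 TPM at 10% in shNT cells. DDIT3 in shNR4A2 cells with LPS was at 73.4, 56.0 and 56.3 TPM at 5% and 52.9, 38.5 and 47.1 TPM at 10%. With LPS shNR4A3 cells held 76.5, 66.0 and 62.8 TPM at 5% and 58.6, 45.0 and 55.5 TPM at 10%. Within each line the libraries at 10% CO2 lay below those at 5%, with a log2FC of -0.31 ± 0.09 and adjusted p = 0.0124, or 0.807-fold. Without LPS the log2FC of DDIT3 was -0.14 ± 0.08 with adjusted p = 0.223.
CEBPG, a C/EBP family partner of ATF4, also fell with LPS, with a log2FC of -0.18 ± 0.06 and adjusted p = 0.0212. Its level went from 62.5 over a median of 76.5 to 87.5 TPM at 5% CO2 to 52.4 over 65.5 to 78.9 TPM at 10%. The call of CEBPG was lost without shNR4A2 5% CO2 + LPS replicate 1, where its adjusted p was 0.0605.

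Of the remaining regulators, none passed the CO2 test in the edgeR fits used for the calls, which hold all 18 libraries of a state and no replicate block. TRIB3, a pseudokinase induced by ATF4 and CHOP, had a log2FC of -0.08 ± 0.09 without LPS and -0.22 ± 0.14 with LPS, with adjusted p of 0.586 and 0.279. SESN2, a stress-induced inhibitor of mTORC1 signalling, had a log2FC of -0.12 ± 0.07 without LPS and -0.12 ± 0.10 with LPS, with adjusted p of 0.268 and 0.434. DDIT4, another inhibitor of mTORC1 signalling, had a log2FC of -0.07 ± 0.07 without LPS, adjusted p = 0.497, and 0.33 ± 0.12 with LPS, adjusted p = 0.0521. Leaving out 1 library at a time, DDIT4 with LPS was called in 6 of 18 fits, with adjusted p from 0.0294 to 0.0964. With the replicate number as a block DDIT4 was called higher with LPS (adjusted p = 0.00293), in a fit that called 6448 of 17720 genes. The DDIT4 level with LPS ran from 248 over a median of 359 to 596 TPM at 5% CO2 and from 324 over 493 to 663 TPM at 10%, and the ranges overlapped. ATF5, a relative of ATF4, had a log2FC of -0.05 ± 0.06 without LPS and -0.01 ± 0.06 with LPS, with adjusted p of 0.611 and 0.889.

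Of the 6 one-carbon enzymes, SHMT2 and MTHFD2 were called higher and SHMT1 lower at 10% CO2 with LPS, and 3 did not pass. Those 2 higher and 1 lower calls stand beside 15.3% and 15.5% of all genes. Without LPS, none of the 6 passed the test by edgeR in the fit to all 18 libraries without a replicate block. That stands beside 9.18% of all genes called higher and 8.72% lower. There 2 had an unadjusted p under 0.05, SHMT1 and MTHFD2, and DESeq2 called 1, SHMT1, lower. Leaving out 1 library at a time, SHMT1 was called in 3 of 18 fits and MTHFD2 in 2. With the replicate number as a block, MTHFD2 (adjusted p = 0.0037) and MTHFD1L (0.0497) were called higher without LPS and SHMT1 (0.0161) lower. That fit called 4390 of 17720 genes. SHMT1, the cytosolic serine hydroxymethyltransferase, was at 10.3, 12.2 and 10.7 TPM with LPS at 5% CO2 and 7.31, 6.25 and 9.44 TPM at 10% in shNT cells. With LPS shNR4A2 cells held 7.02, 9.95 and 6.95 TPM at 5% and 5.19, 4.74 and 5.56 TPM at 10%. The shNR4A3 cells with LPS were at 6.14, 9.82 and 7.20 TPM at 5% and 3.97, 5.36 and 5.55 TPM at 10%. In each line the 3 libraries at 10% CO2 lay below the 3 at 5%. SHMT1 fell to 0.703-fold, a log2FC of -0.51 ± 0.09 with adjusted p = 0.000135, and its log2FC without LPS was -0.18 ± 0.07 with adjusted p = 0.0733.
SHMT2, the mitochondrial counterpart, was at 218, 224 and 249 TPM with LPS at 5% CO2 and 242, 243 and 266 TPM at 10% in shNT cells. SHMT2 in shNR4A2 cells with LPS was at 213, 196 and 231 TPM at 5% and 226, 227 and 242 TPM at 10%. With LPS shNR4A3 cells held 241, 211 and 241 TPM at 5% and 256, 240 and 265 TPM at 10%. The CO2 levels overlapped in every line, and the rise was small, a log2FC of 0.20 ± 0.05 with adjusted p = 0.00702. Without LPS the log2FC of SHMT2 was 0.11 ± 0.06 with adjusted p = 0.185.
MTHFD2, the mitochondrial methylenetetrahydrofolate dehydrogenase, was just past the threshold with LPS, with a log2FC of 0.23 ± 0.09 and adjusted p = 0.0487, and its call was lost when 12 of the 18 libraries were left out one at a time. Without LPS its log2FC was 0.21 ± 0.08 with adjusted p = 0.0864. MTHFD1, the cytosolic trifunctional enzyme, had log2FC of 0.06 ± 0.05 and 0.07 ± 0.05 in the 2 states. MTHFD1L, the mitochondrial formate-producing synthetase, had log2FC of 0.12 ± 0.07 and 0.04 ± 0.07. ALDH1L2, the mitochondrial formyltetrahydrofolate dehydrogenase, had log2FC of 0.03 ± 0.07 and 0.12 ± 0.08. Without the block, those last 3 genes did not pass in either state, with adjusted p from 0.29 to 0.812.

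**Figure D3:**
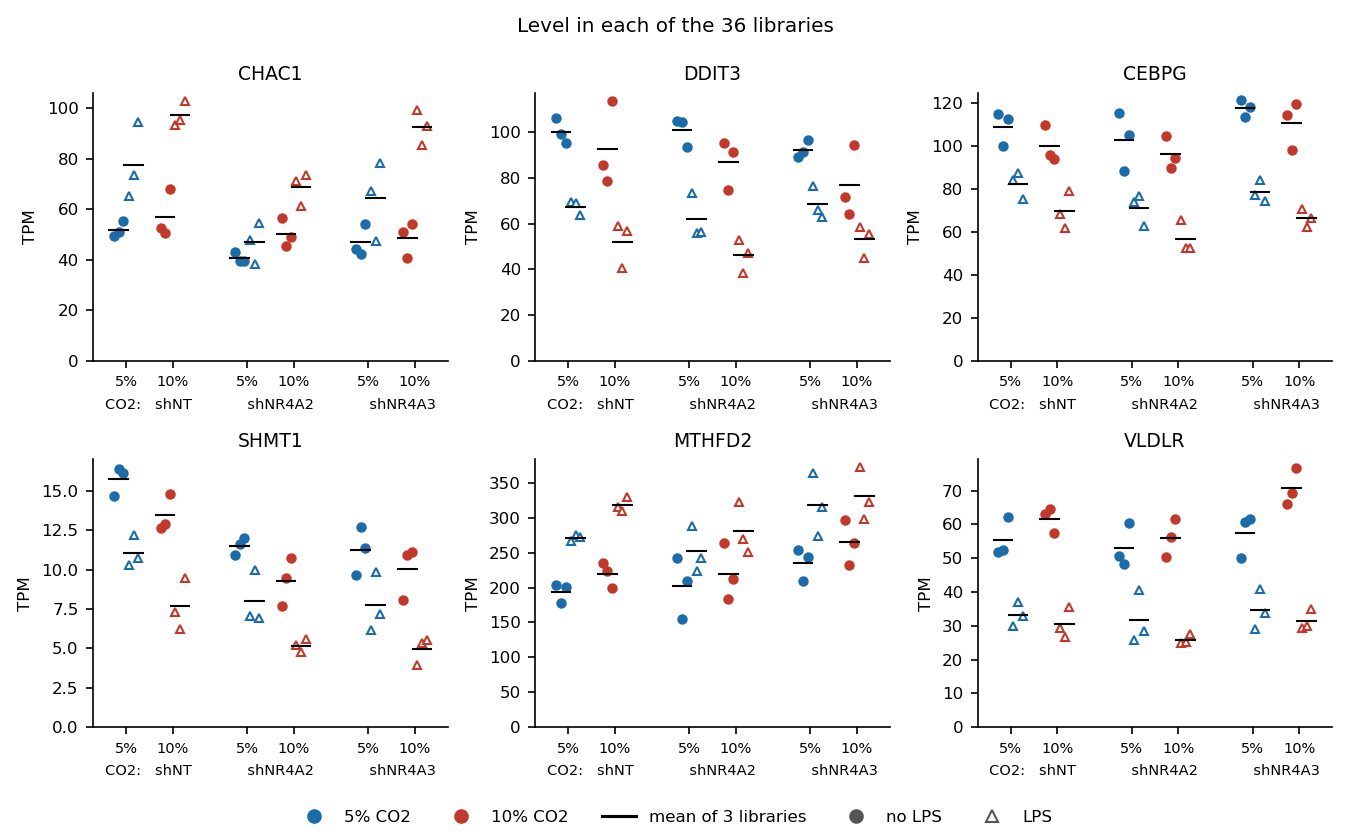
TPM (y axis, from 0) in each of the 36 libraries is plotted for 6 genes by line and CO2 level, with filled circles without LPS, open triangles with LPS and a bar at each mean of 3. With LPS, DDIT3 and SHMT1 lie lower at 10% CO2 within each line, CHAC1 lies higher (61.5 to 103 TPM against 38.4 to 94.5 TPM), and VLDLR falls from 48.2 to 76.7 TPM without LPS to 24.8 to 40.8 TPM with LPS.

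Among the transporters, SLC1A5 and SLC3A2 rose in both states and the exchanger subunits SLC7A5 and SLC7A11 passed in neither. SLC1A5 imports glutamine and neutral amino acids. Without LPS it was at 354, 360 and 371 TPM at 5% CO2 and 411, 448 and 447 TPM at 10% in shNT cells. In shNR4A2 cells SLC1A5 was at 368, 343 and 358 TPM at 5% and 447, 437 and 406 TPM at 10%. In shNR4A3 cells it was at 365, 337 and 350 TPM at 5% and 398, 384 and 413 TPM at 10%. All 9 libraries at 10% CO2 lay above all 9 at 5%, with a log2FC of 0.30 ± 0.04 and adjusted p = 9.43e-05, a 1.23-fold rise. With LPS the SLC1A5 log2FC was 0.18 ± 0.04 with adjusted p = 0.00161, and its TPM overlapped, from 212 over a median of 239 to 274 at 5% and from 229 over 253 to 302 at 10%.
SLC3A2 is the heavy chain that SLC7A5 and SLC7A11 need at the cell surface. Without LPS it was at 264, 241 and 245 TPM at 5% CO2 and 282, 279 and 318 TPM at 10% in shNT cells. In shNR4A2 cells SLC3A2 was at 268, 247 and 250 TPM at 5% and 307, 309 and 262 TPM at 10%. In shNR4A3 cells it was at 258, 238 and 247 TPM at 5% and 291, 260 and 291 TPM at 10%. The levels overlapped only in shNR4A2 cells within a line, with a log2FC of 0.26 ± 0.05 and adjusted p = 0.000911, and the log2FC with LPS was 0.30 ± 0.07 with adjusted p = 0.00226.
SLC7A5, which imports large neutral amino acids, had log2FC of 0.05 ± 0.07 without LPS and -0.07 ± 0.11 with LPS. SLC7A11, the cystine and glutamate exchanger, had log2FC of -0.02 ± 0.10 and -0.09 ± 0.08. SLC38A2, a carrier induced by amino acid shortage, had log2FC of -0.06 ± 0.06 and 0.07 ± 0.05. The adjusted p of these 3 carriers ran from 0.322 to 0.914 over the 2 states.

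VLDLR, a receptor for very-low-density lipoprotein, was the 1 gene of the 32 with a called interaction of CO2 and LPS. Without LPS it was at 51.9, 52.5 and 62.1 TPM at 5% CO2 and 63.1, 64.4 and 57.5 TPM at 10% in shNT cells. In shNR4A2 cells VLDLR was at 50.5, 48.2 and 60.4 TPM at 5% and 50.2, 56.3 and 61.7 TPM at 10%. In shNR4A3 cells it was at 49.96, 60.7 and 61.6 TPM at 5% and 65.9, 69.4 and 76.7 TPM at 10%. VLDLR overlapped in shNT and shNR4A2 cells, and its log2FC was 0.23 ± 0.05 with adjusted p = 0.00335. With LPS its TPM ran from 25.7 over a median of 32.8 to 40.8 at 5% and from 24.8 over 29.2 to 35.5 at 10%, with a log2FC of -0.10 ± 0.07 and adjusted p = 0.285. The interaction of CO2 with LPS over 36 libraries was -0.33 ± 0.09 on the log2 scale with adjusted p = 0.0263. Its call was lost without any 1 of 3 libraries, shNT 5% CO2 + LPS replicate 2, shNR4A2 5% CO2 + LPS replicate 2 or shNR4A3 10% CO2 + LPS replicate 2, with the adjusted p then at most 0.0521. Over all genes 2.56% were called, of which 53.3% were higher, or 41.7% when scaled by library size only. With the replicate number as a block, DDIT4 and SHMT1 were called for the interaction beside VLDLR, in a fit that called 932 of 17720 genes. DDIT4 was at 0.43 ± 0.11 with adjusted p = 0.0195 and SHMT1 at -0.32 ± 0.09 with adjusted p = 0.0324. For PYCR1 and ALDH1B1 the interaction values were -0.12 ± 0.08 and -0.17 ± 0.07, given as a description.

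Of the 4 tRNA synthetases, 1 was called higher in each state and it was the same gene. That count stands beside 9.18% of all genes called higher without LPS and 15.3% with LPS. SARS1, which charges tRNA with serine, had a log2FC of 0.20 ± 0.06 with adjusted p = 0.0171 without LPS and 0.17 ± 0.05 with adjusted p = 0.0167 with LPS. The SARS1 median went from 120 to 130 TPM without LPS and from 98.2 to 105 TPM with LPS. AARS1, for alanine, had log2FC of 0.08 ± 0.04 and 0.01 ± 0.05, GARS1, for glycine, of 0.09 ± 0.06 and 0.12 ± 0.06, and WARS1, for tryptophan, of 0.09 ± 0.06 and 0.08 ± 0.07. None of these 3 passed in either state, with adjusted p from 0.143 to 0.856. With the replicate number as a block GARS1 was called higher with LPS (adjusted p = 0.0193), in a fit that called 6448 of 17720 genes.

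The same question was then asked in each line by itself, with 3 libraries against 3. Fewer genes passed at that size. In shNT cells without LPS, 1 of the 32 genes was called, PSAT1, with a log2FC of 0.52 ± 0.09 and adjusted p = 0.0325, against 0.615% of all genes. Its call was lost without shNT 5% CO2 replicate 1 or shNT 10% CO2 replicate 2, with adjusted p up to 0.312. In shNT cells with LPS, 4 of the 32 were called, all higher, against 8.19% of all genes. Of those all-gene calls 54.5% were higher, or 39.2% when scaled by library size only. They were PSPH with a log2FC of 0.61 ± 0.10, PSAT1 with 0.52 ± 0.09, MTHFD2 with 0.36 ± 0.06 and ASNS with 0.35 ± 0.09, with adjusted p from 0.00467 to 0.0323. ASNS lost its call without 4 of the 6 libraries, shNT 5% CO2 + LPS replicates 1 and 2 and shNT 10% CO2 + LPS replicates 2 and 3, with adjusted p up to 0.134.
In shNR4A2 cells without LPS, edgeR and DESeq2 called none of the 32, against 0.0113% of all genes. An unadjusted p under 0.05 was reached by 6. There same-numbered libraries deviated together, and with the replicate number as a block 2 of the 32 were called higher, against 361 of 17720 genes called in that fit, PSPH with a log2FC of 0.49 ± 0.10 and adjusted p = 0.0205 and SLC1A5 with 0.32 ± 0.07 and adjusted p = 0.0270. In shNR4A2 cells with LPS, none was called, against 0.198% of all genes, while DESeq2 called 2 and an unadjusted p under 0.05 was reached by 6.
In shNR4A3 cells without LPS, 1 of the 32 was called, ALDH18A1, with a log2FC of 0.45 ± 0.10 and adjusted p = 0.0460, against 1.13% of all genes. That call was lost without each of the 6 libraries except shNR4A3 5% CO2 replicate 3, with adjusted p up to 0.303. In shNR4A3 cells with LPS, none was called, against 2.13% of all genes, while DESeq2 called 2 and an unadjusted p under 0.05 was reached by 7.

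Whether the CO2 difference varied between the lines was tested with an interaction of CO2 and line in each state. None of the 32 genes passed in either state by edgeR or DESeq2. Of all genes 0.0% passed in each state. At an unadjusted p under 0.05, 1 of the 32 passed without LPS and 0 with LPS. The sizes in the single lines and states are given side by side. The log2FC of PSAT1 ranged over the 6 pairs of line and state from 0.22 to 0.52, ALDH18A1 from 0.24 to 0.45, SLC3A2 from 0.20 to 0.36, CHAC1 from 0.06 to 0.60 and SHMT1 from -0.58 to -0.14. Over these 6 pairs, which share no library, 16 of the 32 genes had a log2FC above 0 in all 6, against 16.5% of all genes, and 4 had one below 0 in all 6, against 17.3% of all genes. The 4 were DDIT3, CEBPG, SESN2 and SHMT1. ATF4 was above 0 in 3 and below 0 in 3, within -0.06 and 0.04.

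**Figure D4:**
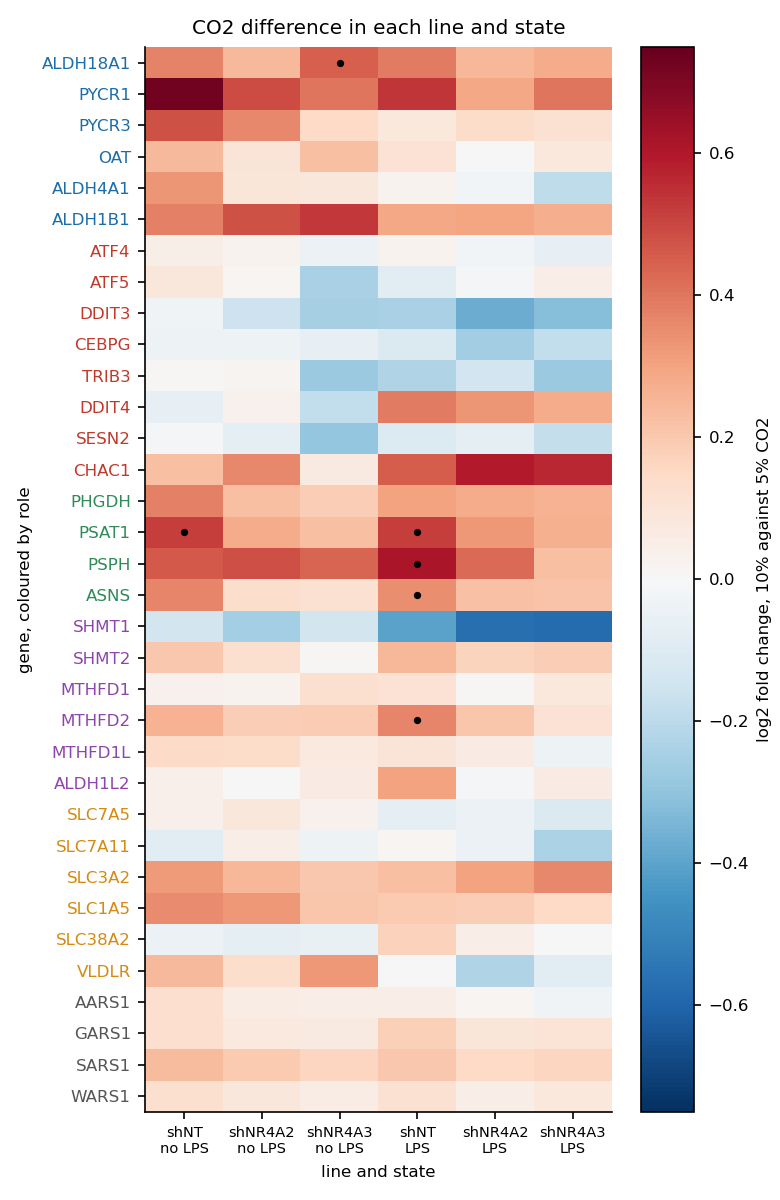
The log2 fold change of 10% against 5% CO2 (colour, red higher and blue lower) is plotted for 34 genes in each line and state, 3 libraries against 3, and a dot marks an adjusted p under 0.05, with no dots for PYCR1 and ALDH1B1. The rows of ALDH18A1, PHGDH, PSAT1, PSPH, ASNS, SLC3A2 and SLC1A5 are red in all 6 columns, SHMT1 is blue in all 6, and ATF4 is near white.

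LPS against no LPS was compared over 36 libraries, 18 against 18, with line and CO2 as terms, the same libraries as above. All 35 genes count here, as none was chosen by LPS response, and 34 were tested. LPS raised 6 of the 34 by at least 1.5-fold, against 10.9% of all genes, and lowered 1, against 11.9% of all genes. Scaling by library size only moved the median log2FC of all genes from -0.01 to -0.22 and the share of higher calls from 47.9% to 28.7%. Stress regulators made up 4 of the 6. DDIT4 rose most, with a log2FC of 1.35 ± 0.08 and adjusted p = 2.48e-16, or 2.54-fold. CHAC1 rose by a log2FC of 0.82 ± 0.08 with adjusted p = 4.16e-12, SESN2 by 0.81 ± 0.07 with adjusted p = 8.99e-14 and ALDH1B1 by 0.78 ± 0.04 with adjusted p = 2.25e-22. MTHFD2 at 0.66 ± 0.06 and ATF5 at 0.60 ± 0.05 were the other two. The call of ATF5 was lost without shNR4A3 5% CO2 + LPS replicate 1 or any of the 3 shNR4A3 10% CO2 replicates, as its log2FC then fell under the 1.5-fold bound, to 0.58 at the lowest. Scaled by library size only, ALDH1B1 at 0.57, MTHFD2 at 0.45 and ATF5 at 0.38 lay under the bound too. SLC38A2, with adjusted p = 1.66e-14, was not called as it lay just under the bound. It was called in 11 of the 36 fits that left out 1 library, with log2FC from 0.563 to 0.600 over them.
VLDLR was the gene LPS lowered, with a log2FC of -0.67 ± 0.05 and adjusted p = 1.85e-15, or 0.627-fold. ATF4 itself differed by less than the bound, a log2FC of 0.43 ± 0.04 with adjusted p = 2.09e-13. The 8 stress regulators had a median log2FC of 0.51, against -0.01 for all genes, with DDIT3 at -0.41 ± 0.07 and CEBPG at -0.34 ± 0.04 on the other side of 0. Proline and serine enzymes differed less, with PYCR1 at -0.23 ± 0.04, PSPH at -0.44 ± 0.06, PHGDH at 0.03 ± 0.04 and PSAT1 at 0.08 ± 0.05, the latter pair falling below 0 when scaled by library size only. SLC1A5, higher at 10% CO2, had a log2FC of -0.39 ± 0.03 between LPS and no LPS.

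**Figure D5:**
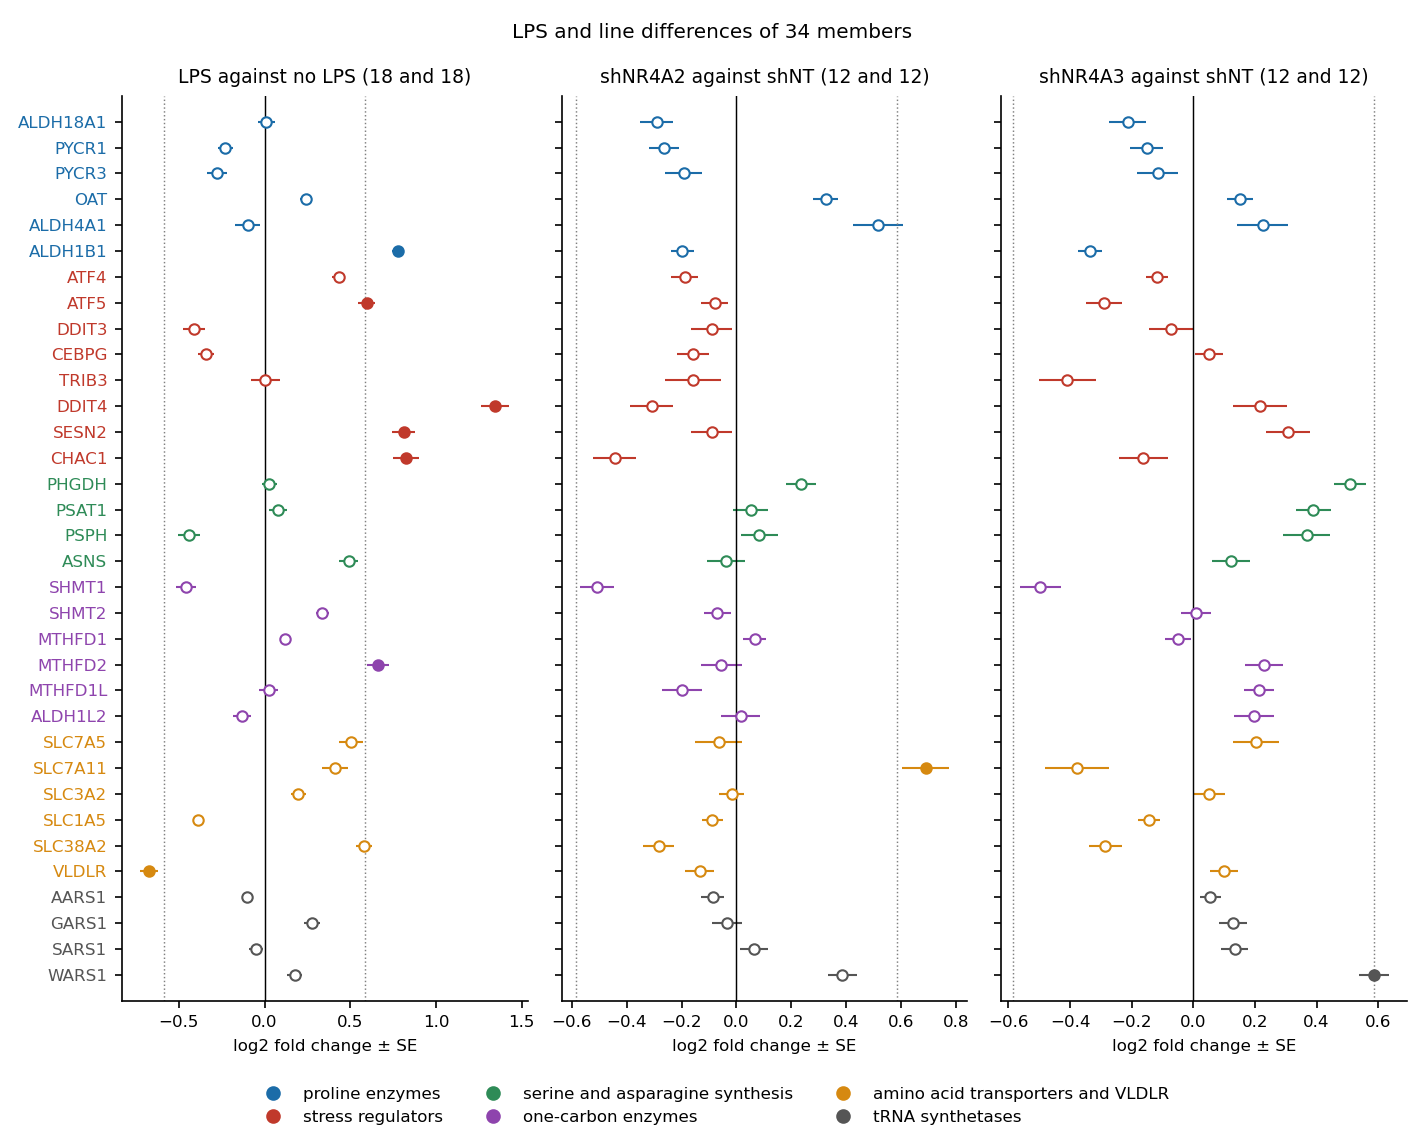
The log2 fold change (x axis, ± SE) of LPS against no LPS, of shNR4A2 against shNT cells and of shNR4A3 against shNT cells is plotted for 34 genes coloured by role, with dotted lines at 1.5-fold and filled circles for genes past that bound with an adjusted p under 0.05. DDIT4 lies farthest right under LPS at 1.35, VLDLR farthest left at -0.67, and in the line panels SLC7A11 and WARS1 are the filled points.

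The lines were compared with condition as a term, 12 libraries against 12, and both comparisons use the same shNT libraries. In shNR4A2 cells 1 of the 34 genes was called higher, against 7.54% of all genes, and 0 lower, against 3.0% of all genes. DESeq2 also called 0 lower, and 14 were lower at an unadjusted p under 0.05. The gene was SLC7A11, with a log2FC of 0.69 ± 0.08 and adjusted p = 4.29e-07, or 1.61-fold. In shNR4A3 cells 1 was called higher, against 5.37% of all genes, and 0 lower, against 3.51% of all genes. DESeq2 called 0 lower and 10 were lower at an unadjusted p under 0.05. That gene was WARS1, with a log2FC of 0.59 ± 0.05 and adjusted p = 4.22e-11, which sits on the 1.5-fold bound and lost its call without 12 of the 24 libraries. In shNR4A3 cells SLC7A11 had a log2FC of -0.38 ± 0.10, and SHMT1 had -0.51 ± 0.06 in shNR4A2 and -0.50 ± 0.07 in shNR4A3 cells, all under the bound. PYCR1 differed by -0.26 ± 0.05 and -0.15 ± 0.05 and ATF4 by -0.19 ± 0.05 and -0.12 ± 0.04 in the same order.

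Other genes of the same pathways were taken from lists and counted in the 3 lines together. Over all genes 9.18% were called higher and 8.72% lower without LPS, and 15.3% and 15.5% with LPS, and each list is to be read against these shares. The 16 other cytosolic tRNA synthetases were all tested, and without LPS 8 rose and 1 fell, with a median log2FC of 0.16. With LPS 10 rose and 1 fell, with a median of 0.19. FARSA, a subunit of the phenylalanine enzyme, had the smallest adjusted p without LPS, with a log2FC of 0.32 ± 0.05 and adjusted p = 0.000108. LARS1, for leucine, had it with LPS, with 0.39 ± 0.05 and adjusted p = 5.78e-06. QARS1, for glutamine, was the gene that fell, by 0.16 and 0.25 on the log2 scale, with adjusted p of 0.0069 and 3.25e-05.
Of 16 other folate and nucleotide one-carbon genes, 15 were tested, of which 5 rose and 10 did not pass without LPS, and 7 rose and 2 fell with LPS. GART, an enzyme of purine synthesis that uses formyl-folate, rose by 0.45 ± 0.05 and 0.47 ± 0.05 in the 2 states, with adjusted p of 4.77e-06 and 1.75e-06. Of 14 other proline, glutamate and arginine genes, 13 were tested, of which 5 rose and 2 fell without LPS, and 5 rose and 1 fell with LPS. ODC1, which makes putrescine from ornithine, rose by 0.36 ± 0.05 without LPS with adjusted p = 9.04e-05. SLC25A44, a mitochondrial carrier, fell by 0.19 without LPS with adjusted p = 0.00529, and SLC36A4, an amino acid transporter, fell by 0.17 with LPS with adjusted p = 0.0305.

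Among 16 other ATF4 targets, 6 rose and 10 did not pass without LPS, and 4 rose and 12 did not pass with LPS, beside 9.18% and 15.3% of all genes called higher. STC2, a secreted glycoprotein, had the smallest adjusted p without LPS, with a log2FC of 0.50 ± 0.10 and adjusted p = 0.000909. BCAT1, the cytosolic branched-chain aminotransferase, had it with LPS, with 0.33 ± 0.05 and adjusted p = 2.99e-05. The 8 eIF2alpha kinases, their partners and phosphatase subunits went both ways, with 1 higher and 3 lower without LPS and 3 higher and 2 lower with LPS. GCN1, which activates the kinase GCN2, rose by 0.27 ± 0.05 and 0.38 ± 0.05, with adjusted p of 0.00125 and 1.85e-05. PPP1R15B, a phosphatase subunit, fell by 0.22 without LPS with adjusted p = 0.00398, and EIF2AK1, the haem-regulated kinase, fell by 0.22 with LPS with adjusted p = 0.000665.
Of 12 genes of the other unfolded protein response arms, 1 rose and 1 fell without LPS, and 2 fell and 10 did not pass with LPS, counts near the all-gene shares of 9.18% higher and 8.72% lower without LPS and 15.5% lower with LPS. SDF2L1, an endoplasmic reticulum protein, rose by 0.20 ± 0.07 without LPS, with adjusted p = 0.0385. CALR, the chaperone calreticulin, fell by 0.18 and 0.16, with adjusted p of 0.0062 and 0.00809. Beside these values, 1 of 10 monocyte markers rose and 1 fell between CO2 levels in each state, FCGR1A by 0.21 and 0.15 upwards and CSF1R by 0.24 and 0.47 downwards on the log2 scale. Of 10 markers of other cell types, 4 were tested and 1 fell in each state, PECAM1 by 0.19 and 0.34. The part of these marker differences in the results for the pathway genes was not tested.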

How the data were processed

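RNA of 36 THP-1 libraries was read as polyA-selected paired ends. Per the study's methods the authors used Trimmomatic 0.36 for trimming and STAR 2.5.2b for alignment to GRCh38, and deposited whole-number counts of uniquely placed reads per gene from featureCounts (Subread 1.5.2). The strand setting and annotation release are not given in the sources used here, so reads of overlapping or antisense genes cannot be told apart.
Symbols were matched for 56410 of 57500 gene IDs (98.1%). TPM was computed here from the counts and the gene lengths deposited with them. Genes were filtered with filterByExpr (minimum count 10, total 15) and tested with edgeR 4.0.16 (TMM, quasi-likelihood) with limma 3.58.1 in R 4.3.3, and p-values were adjusted by Benjamini-Hochberg over 17720 genes. DESeq2 1.42.0 was an alternative, and 7 settings were tried besides leaving out each library in turn. The scripts were tested on simulated data.
The members and lists were chosen with earlier results of these data known. PYCR1, ALDH1B1 and ATF4 are given in all 36 libraries, and the 12 other members with the smallest adjusted p for CO2 in the 18 libraries of the state, without or with LPS, where that p is smaller. For LPS the 4 called members with the largest change in each direction are named, for lines the 3 of smallest adjusted p, for interactions every called member, and for lists the called gene of smallest adjusted p in each direction. Some genes that this rule names are not reported here. Any other gene was named after its values were seen.
Same-numbered libraries correlated above 0.1 in every pair only for CO2 in shNR4A2 cells without LPS (r from 0.184 to 0.309), so the replicate block is given beside that result. The fits of the 3 lines hold 45 such pairs per state, so this rule does not show that pairing was absent there. In these fits the block lowered the biological coefficient of variation between replicates. It went from 10.9% to 8.77% without LPS and from 11.2% to 8.85% with LPS.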

Additional observations from a re-analysis of the deposited data

Results flagged for a closer look

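VLDLR passed the test of the interaction of CO2 and LPS, as 1 call among the 32 genes, against 2.56% of all genes. The interaction was -0.33 on the log2 scale, from a log2FC of 0.23 without LPS to -0.10 with LPS. Its call was lost without any 1 of 3 libraries, with the adjusted p then at most 0.0521.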

How the results depend on the processing

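For the 3 lines together the number of the 32 genes called was 11 without LPS (10 to 13 when leaving out 1 library) and 14 with LPS (13 to 15). The called values, with PYCR1, ALDH1B1 and the uncalled ATF4, DDIT3, TRIB3 and SESN2, were followed through the other settings, where none of the called ones changed sign, 301 values kept their side of the threshold and 11 lost it. Other uncalled values did cross it, and the LPS values of PHGDH and PSAT1 fell below 0 when scaled by library size only. DESeq2 called CHAC1 and SHMT1 without LPS. With LPS it called 12 of the genes higher and 3 lower, against 11 and 3 by edgeR. ASNS without LPS lost its call when scaled by library size only or in one fit to 36 libraries, MTHFD2 with LPS under RLE scaling, without a filter or in the one fit, and the cause was not tested. Counts in single lines moved more. In shNT cells without LPS, 1 gene became 8 by DESeq2, 5 without a filter and 2 in the one fit, and 0 to 5 without 1 library. In shNT cells with LPS, 4 became 8 by DESeq2, 12 without a filter and 2 in the one fit, and 3 to 9 without 1 library. In shNR4A2 cells, 0 became 1 in the one fit without LPS, and with LPS 2 by DESeq2, without a filter and in the one fit, and 0 to 2 without 1 library. In shNR4A3 cells without LPS, 1 became 2 by DESeq2, 4 without a filter and 0 in the one fit, and 0 to 2 without 1 library. In shNR4A3 cells with LPS, 0 became 2 by DESeq2, 3 without a filter and 2 in the one fit. The shNR4A3 line call, 1 gene, became 0 when scaled by library size only or without a filter, and 0 to 1 without 1 library. The interaction of CO2 and LPS, 1 gene, became 2 without a filter, and 0 to 2 without 1 library. Over all genes DESeq2 called 358 of 37084 and 1801 of 40744 in shNT cells without and with LPS. It called 600 of 40381 in shNR4A2 cells with LPS, and 550 of 40059 and 885 of 41431 in shNR4A3 cells. The one fit called 303 and 1289 of 17720 in shNT, 58 and 1009 in shNR4A2 and 107 and 860 in shNR4A3 cells. Without a filter, 823 of 40059 were called in shNR4A3 cells without LPS and 876 of 50377 for the interaction.

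With the replicate number as a block, 15 genes were called in the 3 lines without LPS. Added were CHAC1 (adjusted p = 0.0204), MTHFD2 (0.0037) and MTHFD1L (0.0497) as higher and SHMT1 (0.0161) as lower. With LPS 16 were called, adding DDIT4 (0.00293) and GARS1 (0.0193). Calls rose over all genes too, to 4390 of 17720 without LPS and 6448 with LPS, from 3172 and 5460 without the block. The other block counts were 9 in shNT cells with LPS, 2 and 1 in shNR4A2 cells without and with LPS, 6 and 3 in shNR4A3 cells without and with LPS, 0 for the shNR4A3 line and 3 for the interaction. Over all 17720 genes the same fits called 1568 in shNT cells with LPS, and 361 and 619 in shNR4A2 cells. They called 1073 and 518 in shNR4A3 cells, 1611 for the shNR4A3 line and 932 for the interaction. Only in shNR4A2 cells without LPS did same-numbered libraries correlate above 0.1 in every pair.

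Over all genes the shNR4A2 count with LPS, 35, ran from 0 (library size only) to 1112 (no filter), that of shNR4A2 without LPS, 2, to 361 with the block, that of shNR4A3 without LPS, 200, to 1073 with the block, that of shNR4A3 with LPS, 378, from 167 (library size only) to 1402 (no filter), that of shNT without LPS, 109, to 418 (no filter), that of shNT with LPS, 1452, to 2238 (no filter), that of LPS, 4045, to 6386 (no filter), and the interaction, 454, to 932 with the block. Leaving out 1 library took shNT without LPS to 0 (without 5% CO2 replicate 1 or 10% CO2 replicate 2) or up to 559 (10% CO2 replicate 1), shNT with LPS to 334 (10% CO2 replicate 2), shNR4A2 with LPS to 0 (5% CO2 replicate 1) or 1122 (5% CO2 replicate 3), shNR4A3 without LPS to 0 (10% CO2 replicate 2) or 365 (5% CO2 replicate 1), shNR4A3 with LPS to 1 (10% CO2 replicate 1), and the interaction to 267 (shNT 5% CO2 + LPS replicate 2), so the all-gene shares beside the single-line counts move as well. In one fit, shNR4A3 without LPS had 107, and shNR4A2 without LPS had 0 when scaled by library size only.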
